A study of Mus musculus and Homo sapiens with 65 samples.

Results

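The subcortical maternal complex is a protein assembly under the cell membrane of mouse eggs and cleaving embryos. Its 6 genes described here are Nlrp5, Ooep, Tle6, Khdc3, Zbed3 and Padi6, taken by gene name from RNA-seq tables of late 2-cell mouse embryos that list 32287 genes. Each name matched 1 row of the tables, so all 6 genes are accounted for. The messenger RNAs of the complex are made while the oocyte grows and are largely cleared after fertilisation, whereas the proteins persist through cleavage. No egg library was compared here, so clearance of each of the 6 was not tested. Zbed3 was still among the most abundant transcripts of every late 2-cell library. The complex is a maternal effect complex: offspring of mothers that lack Nlrp5, Ooep, Tle6 or Padi6 stop dividing around the 2-cell stage, whatever gene copy the father gives. The same proteins are tied to the fibrous cytoplasmic lattices of the egg, which store proteins for the embryo.

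The 9 libraries fall into 4 groups. In 2 libraries the embryos had received alpha-amanitin. This mushroom toxin stops RNA polymerase II, so that mostly RNA inherited from the egg is left. The labels used here state neither its dose nor its duration. In 2 libraries the zygotes had received fluorescein-tagged morpholinos (synthetic antisense strands that keep a target RNA from being translated or spliced) directed at Kdm5a and Kdm5b together, which encode demethylases of lysine 4 on histone H3. In 2 libraries the zygotes had received tagged mismatch versions of both morpholinos as the injection control. These injections were made at 0.5 days post coitum. The remaining 3 libraries are from wild-type embryos, and the culture medium named for the embryos was G1 plus, used until the late 2-cell stage. A morpholino lowers protein output for as long as it lasts and leaves the gene in place. The labels used here name no strain, no number of embryos per library and no separate collections for the replicates. The p-values therefore cover library-to-library spread, part of which may be technical.

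Values are FPKM, the fragments of a gene after correction for the length of its transcripts and for the size of the library, so a level is relative to all other RNA of the same library. In bulk embryos, fewer cells with a transcript and less of it per cell cannot be told apart. The number of genes at 1 FPKM or more was 7935 and 7977 in the alpha-amanitin libraries, 10802 and 11180 with the Kdm5a+b morpholinos, 10611 and 11228 in the mismatch controls, and 10757 to 10950 in wild type. The stage label was set against 19 genes that 2-cell embryos transcribe, such as the Zscan4 and Tdpoz families and Zfp352. Their summed level was 27.03 and 27.07 FPKM with alpha-amanitin, 588 to 683 FPKM in Kdm5a+b morpholino embryos, 529 to 601 FPKM in mismatch controls and 417 to 586 FPKM in wild type. This list was chosen with earlier results of these data known, so it is no independent check. Markers of cumulus cells (8 of 10 genes under 1 FPKM in every library), sperm (4 of 8), blood (4 of the 6 listed in the tables) and oviduct (3 of 5) summed to at most 9.66 FPKM per list in any library. The cumulus list, with 2 genes at 0 throughout, summed to 0.230 and 0.577 FPKM with alpha-amanitin and to 2.27 to 4.20 FPKM in wild type, and its part in the differences below was not tested.

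The genes are spread over the genome (build mm10, positions counted from 1). Nlrp5 (ENSMUSG00000015721.12) spans chr7:23385889-23441922, Ooep (ENSMUSG00000032346.7) chr9:78376109-78378725, Tle6 (ENSMUSG00000034758.7) chr10:81590904-81601073, Khdc3 (ENSMUSG00000092622.3) chr9:73101836-73104438, Zbed3 (ENSMUSG00000041995.7) chr13:95325237-95337841 and Padi6 (ENSMUSG00000040935.7) chr4:140727355-140742643. RefSeq lists 10 transcript starts for the 6 genes on GRCm38.p6, the assembly behind mm10. The 250 bases before a start are shown for 3 of them, because these windows lie wholly before the annotated transcripts. They belong to the most abundant member (Zbed3), to the most abundant of the other 5 in wild type (Nlrp5) and to the member with the next largest difference after Zbed3 under alpha-amanitin (Padi6). Bases are in lower case, 5′ to 3′ on the gene's own strand, and capitals mark CANNTG, the E-box, which is the motif class of the oocyte factor FIGLA.
Zbed3, plus strand, chr13:95323355-95323604: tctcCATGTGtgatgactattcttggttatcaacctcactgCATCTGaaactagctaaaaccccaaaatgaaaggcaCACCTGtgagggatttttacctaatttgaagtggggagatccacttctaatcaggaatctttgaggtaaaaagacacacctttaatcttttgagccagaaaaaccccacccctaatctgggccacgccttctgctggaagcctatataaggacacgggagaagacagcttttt
Nlrp5, plus strand, chr7:23385639-23385888: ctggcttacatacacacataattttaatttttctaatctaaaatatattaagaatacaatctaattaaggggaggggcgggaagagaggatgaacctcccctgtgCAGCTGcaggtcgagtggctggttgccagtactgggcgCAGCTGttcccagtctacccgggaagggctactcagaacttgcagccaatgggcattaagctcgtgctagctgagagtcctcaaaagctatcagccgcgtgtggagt
Padi6, minus strand, chr4:140742644-140742893: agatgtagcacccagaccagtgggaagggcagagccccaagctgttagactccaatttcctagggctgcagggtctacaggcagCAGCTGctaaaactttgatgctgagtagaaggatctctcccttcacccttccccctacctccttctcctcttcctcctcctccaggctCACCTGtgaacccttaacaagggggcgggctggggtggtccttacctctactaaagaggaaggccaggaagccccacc

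CANNTG, searched on both strands, was found in all 10 windows of the 6 genes, and in 66.2% of the 32851 windows of 250 bases in the RefSeq table. The narrower CACCTG or its reverse complement CAGGTG, which is contained in CANNTG, stood in windows of Khdc3, Zbed3 and Padi6, and in 17.2% of all windows. In the sequences printed, CACCTG begins 173 bases before the Zbed3 start and 78 bases before the Padi6 start. Both E-boxes of the Nlrp5 window read CAGCTG, at 145 and 107 bases before the start. The Zbed3 window has 36.8% repeat-masked bases, the Nlrp5 window 22.8% and the Padi6 window 13.6%. For Zbed3, this RefSeq start lies 1632 bases before the start that the deposited tables use, and a second one lies 412 bases before it. The tables hold 1 value per gene, so which of the starts was in use was not tested. The levels of the oocyte factors themselves differed: Figla was at 0 to 0.626 FPKM across the 9 libraries, while Nobox was at 7.94 to 20.2 FPKM and Lhx8 at 16.1 to 33.2 FPKM.

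The 6 genes did not have one common level. Zbed3, which encodes a BED-type zinc finger protein known as an Axin partner in Wnt signalling, stood second of all 32287 genes in each of the 9 libraries and made up 97.9% to 99.3% of the summed FPKM of the 6. Its level was 8251 and 9209 FPKM with alpha-amanitin, 3584 and 4066 FPKM in Kdm5a+b morpholino embryos, 3550 and 3504 FPKM in the mismatch controls, and 3281, 3024 and 3101 FPKM in wild type. Both alpha-amanitin libraries lay far above the other 7, and the 3 wild-type libraries were the lowest of all. The share of all genes with this order over the 9 libraries was not counted. The other 5 genes together summed to 59.0 and 95.6 FPKM with alpha-amanitin, 64.3 and 57.7 FPKM in Kdm5a+b morpholino embryos, 75.9 and 52.0 FPKM in the controls, and 56.9, 44.1 and 56.9 FPKM in wild type.

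**Figure D1:**
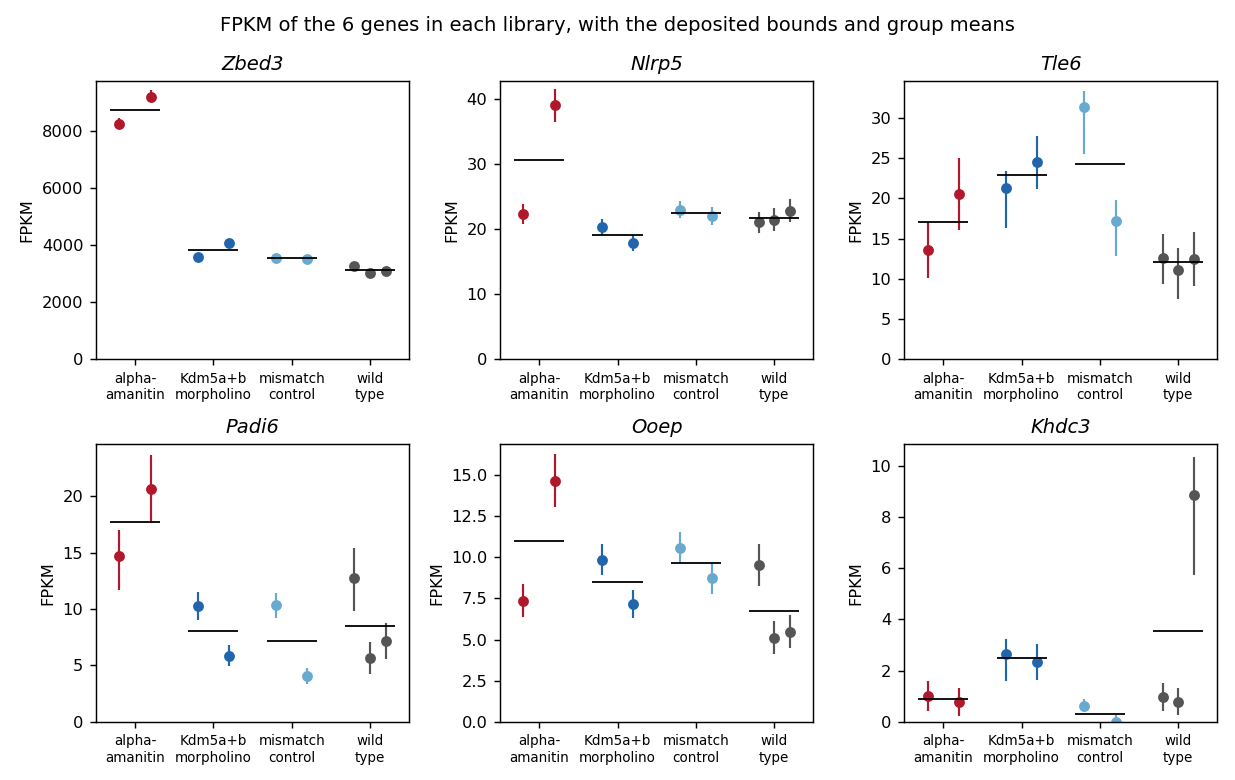
FPKM of each of the 6 genes (vertical axis, linear from 0, a scale of its own per gene) in every library, by group. Points are libraries, vertical lines the deposited lower and upper bounds of the FPKM, and horizontal bars group means. Zbed3 sits at 8251 and 9209 FPKM in the alpha-amanitin libraries and at 3024 to 4066 FPKM in the other 7, and Khdc3 is highest in 1 wild-type library, at 8.86 FPKM.

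The scaffold of the complex is formed by NLRP5 (also called MATER), an NLR family protein with leucine-rich repeats, together with OOEP and TLE6. Nlrp5 was at 22.4 and 39.1 FPKM with alpha-amanitin, 20.3 and 17.9 FPKM in Kdm5a+b morpholino embryos, 23.0 and 22.1 FPKM in the controls, and 21.1, 21.5 and 22.8 FPKM in wild type. It was the steadiest of the 6 in wild type after Zbed3 in relative terms: the coefficient of variation over the 3 libraries was 4.31%, against 4.21% for Zbed3. Alpha-amanitin replicate 2 stands alone at the top, and the other 8 libraries lie within 17.9 to 23.0 FPKM. Ooep, which encodes a small protein with an atypical KH domain (FLOPED), was at 7.37 and 14.7 FPKM with alpha-amanitin, 9.87 and 7.16 FPKM in Kdm5a+b morpholino embryos, 10.6 and 8.75 FPKM in the controls, and 9.54, 5.12 and 5.48 FPKM in wild type. The ranges of all 4 groups overlap for Ooep.

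Tle6 encodes a protein of the Groucho family of transcriptional corepressors that in the egg is a structural part of the complex. Its level was 13.5 and 20.5 FPKM with alpha-amanitin, 21.2 and 24.5 FPKM in Kdm5a+b morpholino embryos, 31.4 and 17.2 FPKM in the controls, and 12.6, 11.1 and 12.5 FPKM in wild type. Every treated or injected library was above every wild-type library, but the share of all genes with that order was not counted. The margin is small. Alpha-amanitin replicate 1, at 13.5 FPKM, lies close to wild-type replicate 1, at 12.6 FPKM, and the deposited bounds of these libraries overlap. Padi6 encodes a member of the peptidylarginine deiminase family that the lattices need in order to form. It was at 14.7 and 20.6 FPKM with alpha-amanitin, 10.2 and 5.87 FPKM in Kdm5a+b morpholino embryos, 10.3 and 4.05 FPKM in the controls, and 12.7, 5.64 and 7.19 FPKM in wild type. The alpha-amanitin libraries are the highest of the 9 for Padi6, an order whose share among all genes was not counted either. Within each of the other groups 1 library is well above the rest.

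Khdc3 encodes FILIA, a KH-domain protein of the complex whose maternal loss gives embryos with unequal chromosome numbers. It was the lowest member in every group mean, at 0.996 and 0.764 FPKM with alpha-amanitin, 2.65 and 2.34 FPKM in Kdm5a+b morpholino embryos, 0.630 and 1.53e-06 FPKM in the controls, and 0.982, 0.790 and 8.86 FPKM in wild type. Wild-type replicate 3 is the exception, with deposited bounds of 5.74 to 10.4 FPKM, above the upper bounds of wild-type replicate 1 (1.52 FPKM) and of wild-type replicate 2 (1.32 FPKM). The value next to 0 in control replicate 2 carries the status OK and an upper bound of 0.266 FPKM. With only 3 libraries at 1 FPKM or more, Khdc3 passed the filter on low values through the Kdm5a+b morpholino pair and wild-type replicate 3, so its differences below are a description and no test is read from them.

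The order of the levels by group mean was Zbed3, Nlrp5, Padi6, Tle6, Ooep and Khdc3 with alpha-amanitin. It was Zbed3, Tle6, Nlrp5, Ooep, Padi6 and Khdc3 in both injected groups, and Zbed3, Nlrp5, Tle6, Padi6, Ooep and Khdc3 in wild type. Zbed3 was clear of the next gene in all 4 groups. The ranges of Tle6 and Nlrp5 were separate in Kdm5a+b morpholino embryos and overlapped in the mismatch controls. Under alpha-amanitin Tle6 overlapped both its neighbours, Padi6 and Ooep. Ooep and Padi6 overlapped in both injected groups, and in wild type the ranges of Tle6, Padi6, Ooep and Khdc3 each overlapped the next. The half-width of the deposited bounds was 0.556% to 1.16% of the FPKM for Zbed3 and 5.52% to 8.08% for Nlrp5. It was 8.71% to 19.4% for Ooep, 12.4% to 28.3% for Tle6 and 10.6% to 24.6% for Padi6. The bounds are not reliable for Zbed3, whose FPKM lies below its own lower bound in all 9 libraries (8251 FPKM against a lower bound of 8356 FPKM in alpha-amanitin replicate 1, for example).

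With transcription blocked, Zbed3 was the 1 member called: it averaged 8730 ± 678 FPKM in alpha-amanitin embryos (SD, n = 2) and 3135 ± 132 FPKM in wild-type embryos (SD, n = 3), 2.78-fold higher. The difference in log2(FPKM + 1) was 1.48 (SE 0.12, 95% interval 1.22 to 1.73, adjusted p = 1.01e-05, limma with Benjamini-Hochberg adjustment over 13137 genes). It was larger than that of 96.9% of the tested genes. Its precision depends on how the spread is estimated. With eBayes without a trend on the mean, the SE was 0.32 (adjusted p = 0.0076 in limma). With only the 2 groups in the fit, the SE was 0.13 (adjusted p = 0.0020 in limma). Of all tested genes, 29.4% were called in either direction, 4.31% higher and 25.1% lower, so that a call is common here and a higher call is not. At an unadjusted p under 0.05 stood 40.4% of genes, and Zbed3 alone of the 6. Zbed3 took 4.18% and 4.38% of all FPKM in the alpha-amanitin libraries, against 1.50%, 1.30% and 1.36% in wild type.

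**Figure D2:**
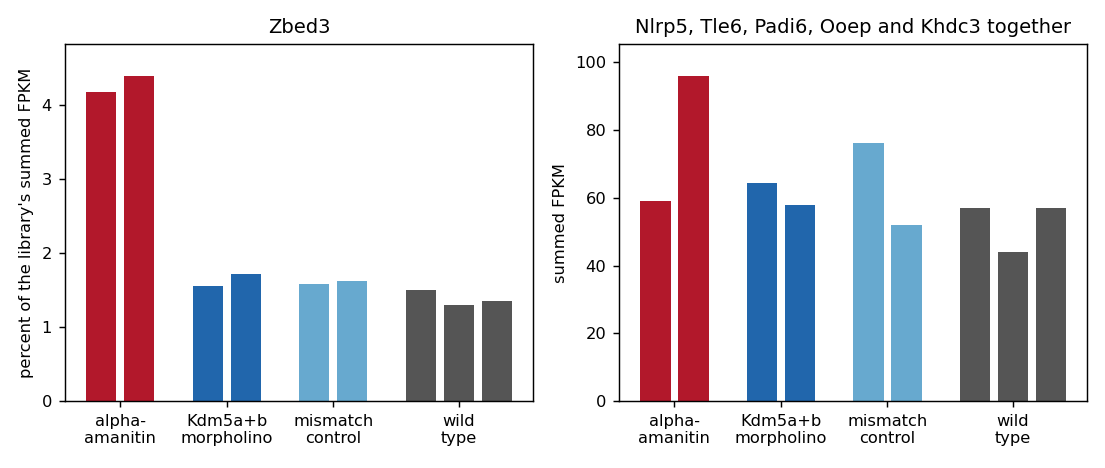
Left, Zbed3 as a percent of the summed FPKM of its library; right, the summed FPKM of the other 5 genes. Each bar is 1 library, in the order of its replicate number within the group, and both axes start at 0. Zbed3 is at 4.18% and 4.38% with alpha-amanitin and at 1.30% to 1.72% in the other 7 libraries, while the sum of the other 5 genes has alpha-amanitin replicate 2 (95.6 FPKM) far above replicate 1 (59.0 FPKM).

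Padi6, Tle6, Nlrp5 and Ooep did not pass the test in that comparison, and their intervals are wide. From Khdc3 no test is read. Padi6 averaged 17.7 ± 4.2 FPKM with alpha-amanitin and 8.52 ± 3.72 FPKM in wild type, with a log2 difference of 1.02 (SE 0.49, 95% interval -0.05 to 2.10, adjusted p = 0.141 in limma). Tle6 averaged 17.0 ± 4.9 FPKM with alpha-amanitin and 12.1 ± 0.8 FPKM in wild type, a log2 difference of 0.44 (SE 0.35, interval -0.34 to 1.21, adjusted p = 0.375 in limma). Both alpha-amanitin libraries were above all wild-type libraries for Zbed3, Padi6 and Tle6, 3 of the 6 members; 13.4% of all tested genes had that order and 41.1% the opposite one.

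Nlrp5 averaged 30.7 ± 11.8 FPKM with alpha-amanitin and 21.8 ± 0.9 FPKM in wild type, with a log2 difference of 0.43 (SE 0.31, interval -0.26 to 1.11, adjusted p = 0.329 in limma). Ooep averaged 11.0 ± 5.2 FPKM with alpha-amanitin and 6.71 ± 2.45 FPKM in wild type, with a log2 difference of 0.61 (SE 0.43, interval -0.33 to 1.56, adjusted p = 0.309). The differences of the 3 scaffold genes depend on which alpha-amanitin library is used. Replicate 2 had 1.75 times the Nlrp5 level, 1.99 times the Ooep level and 1.51 times the Tle6 level of replicate 1. The median of that ratio over 4344 genes averaging 5 FPKM or more in this group was 1.05. Of those genes, 81.6% had a lower ratio than Nlrp5, 85.6% a lower one than Ooep and 75.6% a lower one than Tle6. Padi6, with a ratio of 1.40, stood above 71.6% of them. Without alpha-amanitin replicate 2, the log2 difference was 0.04 for Nlrp5, 0.16 for Ooep and 0.16 for Tle6. Without replicate 1 it was 0.82 for Nlrp5, 1.07 for Ooep and 0.72 for Tle6. Khdc3 had a log2 difference of -0.80, which was -0.01 without wild-type replicate 3.

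**Figure D3:**
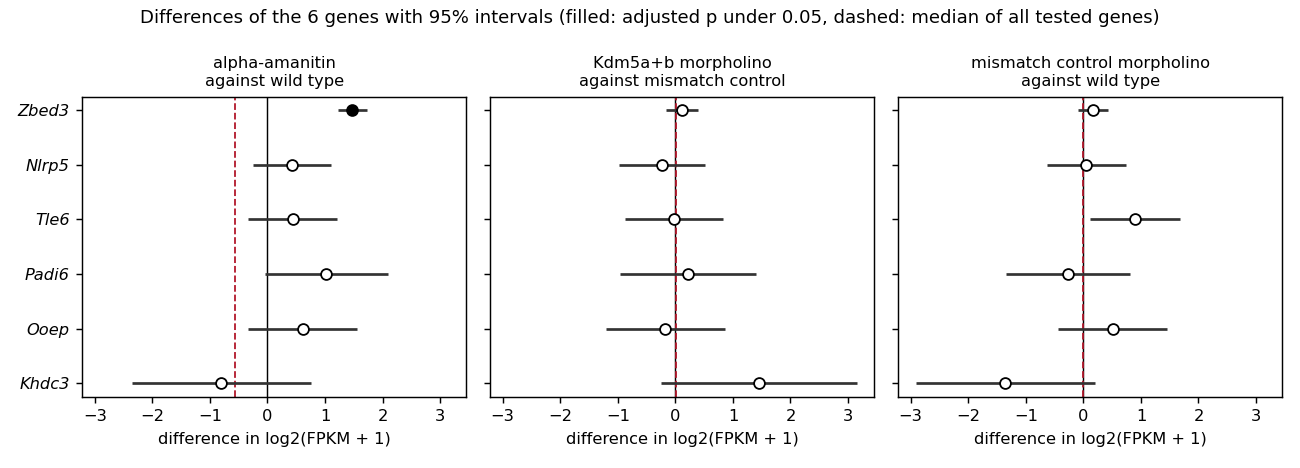
Differences in log2(FPKM + 1) of the 6 genes in the 3 comparisons, with 95% intervals from the limma fit; filled points have an adjusted p under 0.05 and the dashed line is the median of all 13137 tested genes. Zbed3 under alpha-amanitin, at 1.48, is the only filled point, and in that panel the median of all genes lies at -0.56. Khdc3 is drawn as a description, since it passed the filter through the libraries where it is high.

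The median difference of the 6 genes, Khdc3 included, was 0.53, while that of all tested genes was -0.56. Relative to that median, the differences were 2.03 for Zbed3, 1.58 for Padi6, 1.17 for Ooep, 0.99 for Tle6, 0.98 for Nlrp5 and -0.25 for Khdc3 on the log2 scale. Among the 4609 genes that averaged 5 to 25 FPKM in wild type, the class that holds Nlrp5, Tle6, Padi6 and Ooep, the median was -1.08, with 177 called higher and 1851 called lower. For Zbed3 the like class is small. Of the 7 genes that averaged at least 1000 FPKM in wild type, Gm1965 had a log2 difference of 1.83, Zbed3 1.48 and Rbm38, an RNA-binding protein gene, 0.90, and all 3 were called higher. Omt2b (-0.76, adjusted p = 0.0037 in limma) and Vimp (-9.44, adjusted p = 2.7e-06) were called lower. Omt2a, an oocyte-specific transcript, was at -0.15 and Yam1 at -0.21, and neither was called.

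Each FPKM is a share of what its library holds, and no spiked-in RNA stands in the tables, so an absolute change per embryo cannot be read from them. The number of members called depends on how the libraries are put on one scale. With each library centred on its median gene, 5 of 6 members were called higher, with log2 differences of 2.55 for Zbed3, 2.10 for Padi6, 1.69 for Ooep, 1.51 for Tle6 and 1.50 for Nlrp5. With quantile normalization 3 were called, Padi6 at 1.64, Ooep at 1.38 and Tle6 at 1.05, and Zbed3 was at 0 because a gene that ranks second in every library gets the same value in each. These scalings also shift the median of all genes, to 0.52 and 0.17, and the calls over all genes from 566 higher and 3299 lower as deposited to 3323 higher and 1590 lower with centring and 1716 higher and 1806 lower with quantile normalization. The direction of Khdc3 turned under both, to 0.27 and 0.23. Without a filter on low values, 24287 genes were tested, 405 were called higher and 2481 lower, and no member was called. The Zbed3 difference stayed at 1.48 with an SE of 0.86 (adjusted p = 0.384 in limma).

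**Figure D4:**
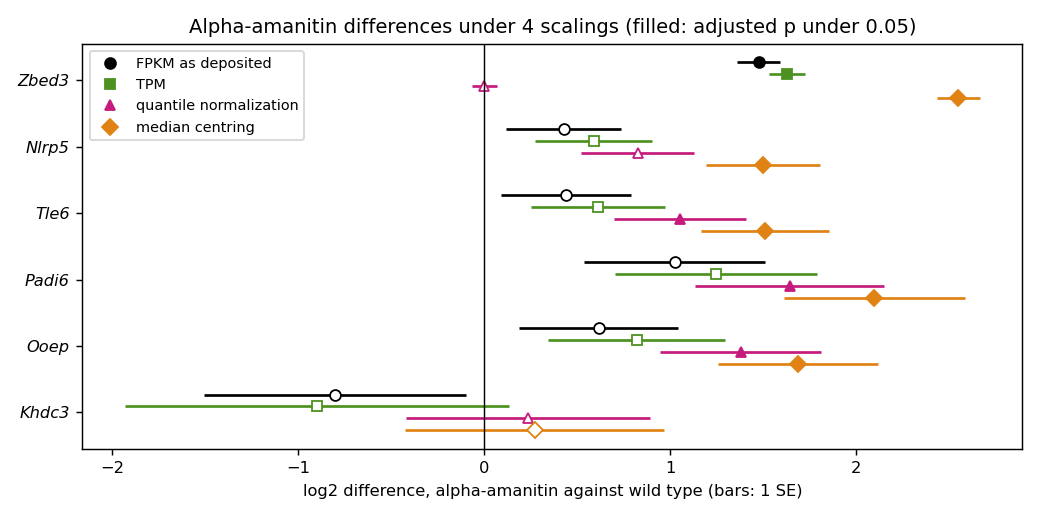
Log2 differences between alpha-amanitin and wild type (horizontal axis, bars of 1 SE) for each of the 6 genes under 4 ways of scaling the libraries; filled symbols have an adjusted p under 0.05. Nlrp5, Tle6, Padi6 and Ooep lie above 0 under all 4, Zbed3 runs from 0 with quantile normalization to 2.55 with median centring, and Khdc3 changes sign.

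No member was called with the Kdm5a+b morpholinos. At an adjusted p under 0.05 in limma, 0 of the 6 members and 0% of the 13137 tested genes were called; 414 genes (3.15%) had an unadjusted p under 0.05, none of them a member. Because morpholinos can act on translation, the levels of the targeted RNAs do not check the depletion, and neither was called: Kdm5a had 19.5 and 15.3 FPKM in Kdm5a+b morpholino libraries and 12.8 and 9.44 FPKM in the mismatch controls, and Kdm5b had 38.1 and 27.6 FPKM in Kdm5a+b morpholino libraries and 55.3 and 39.6 FPKM in the controls.

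Zbed3 averaged 3825 ± 340 FPKM in Kdm5a+b morpholino embryos and 3527 ± 32 FPKM in the controls (SD, n = 2 each), with a log2 difference of 0.11 (SE 0.13) and a 95% interval of -0.17 to 0.40, which leaves out a difference of 1.48, the value under alpha-amanitin. Without the filter on low values the SE of the Zbed3 difference was 0.94, too wide to leave that value out. Nlrp5 had a log2 difference of -0.23 (95% interval -0.98 to 0.52), Ooep of -0.17 (-1.21 to 0.86), Tle6 of -0.03 (-0.88 to 0.82) and Padi6 of 0.22 (-0.96 to 1.39). On the FPKM + 1 scale these intervals run from 0.506-fold to 1.43-fold for Nlrp5, from 0.431-fold to 1.82-fold for Ooep and from 0.513-fold to 2.63-fold for Padi6. Changes within these intervals remain possible. Khdc3 was at 2.65 and 2.34 FPKM in Kdm5a+b morpholino embryos against 0.630 and 1.53e-06 FPKM in the controls. Both Kdm5a+b libraries were above both controls for Zbed3, an order that 16.5% of tested genes had, and below both for Nlrp5, an order that 16.8% had.

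Injection of the mismatch morpholinos was not followed by a called change in any member either. In limma 0 of the 6 members and 0% of tested genes passed, and 616 genes (4.69%) had an unadjusted p under 0.05, among them 1 member, Tle6. Tle6 averaged 24.3 ± 10.1 FPKM in mismatch controls (SD, n = 2) and 12.1 ± 0.8 FPKM in wild type (SD, n = 3), with a log2 difference of 0.90 (SE 0.35, interval 0.12 to 1.67, unadjusted p = 0.0276, adjusted p = 0.999 in limma). Leaving out replicate 1 of the controls gave a Tle6 difference of 0.48, and leaving out replicate 2 gave 1.31. With both injected groups averaged the Tle6 difference was 0.88 (SE 0.29, adjusted p = 0.633), and all 4 injected libraries, at 17.2 to 31.4 FPKM, lay above the 3 wild-type libraries, at 11.1 to 12.6 FPKM. Zbed3 had the same order, at 3504 to 4066 FPKM in the 4 injected libraries and 3024 to 3281 FPKM in wild type. That order held for 4.12% of all tested genes, and the opposite order for 4.1%.

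In the mismatch controls against wild type, Zbed3 differed by 0.17 on the log2 scale (95% interval -0.09 to 0.43), Ooep by 0.51 (-0.44 to 1.46), Nlrp5 by 0.05 (-0.64 to 0.73) and Padi6 by -0.26 (-1.34 to 0.81). The Khdc3 difference was -1.36, and -0.56 without wild-type replicate 3. Tle6 and Zbed3 did not overlap between the groups and were higher in the controls, as 9.26% of tested genes were. The opposite order was found in 8.85%. Khdc3 was lower in the controls than in wild type, but nothing is read from that order. Its deposited bounds overlapped between control replicate 1 (0.380 to 0.877 FPKM) and wild-type replicate 2 (0.261 to 1.32 FPKM). This comparison shares its wild-type libraries with the alpha-amanitin comparison and its control libraries with the Kdm5a+b comparison, so the values are not independent of those above.

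The partners of the complex and of the lattices behaved unequally under alpha-amanitin. Of 13 listed partners, all tested, 2 rose and 1 fell, and the median difference was 0.45 against -0.56 for all genes. Of all tested genes 4.31% were called higher and 25.1% lower. In this list and those below, rose and fell mean called on FPKM as deposited, that is, relative to the library. The lists were not counted under the other scalings. Ybx2, which encodes the RNA-binding protein MSY2 that stores messenger RNA in the oocyte, was at 122 and 120 FPKM with alpha-amanitin and at 34.8, 38.3 and 69.2 FPKM in wild type, a log2 difference of 1.40 (SE 0.30, adjusted p = 0.005 in limma). Nlrp9a, of the same family as Nlrp5, was at 53.7 and 57.2 FPKM with alpha-amanitin and at 30.5, 21.8 and 21.7 FPKM in wild type (log2 difference 1.16, SE 0.29, adjusted p = 0.013). Tubb4b, a beta-tubulin gene, fell to 2.77 and 7.36 FPKM with alpha-amanitin, against 43.8, 90.6 and 82.3 FPKM in wild type (log2 difference -3.64, SE 0.47, adjusted p = 2.18e-04).

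The other partners at 10 FPKM or more on average did not pass. Those of the NLR family had differences of 0.97 for Nlrp4f, 0.96 for Nlrp9b, 0.80 for Nlrp9c and 0.63 for Nlrp14. The DNA methylation pair Uhrf1 and Dnmt1 had 0.32 and 0.45, the 14-3-3 genes Ywhae and Ywhah had -0.16 and -0.36, and the actin-severing Cfl1 had -0.40. None of the 13 was called in the other comparisons.

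Of 22 paralogs of the 6 genes, 18 were tested, 3 rose and 5 fell under alpha-amanitin. The share of paralogs that fell is close to the 25.1% of all tested genes, and 4.31% of all tested genes rose. The paralogs that rose belong to families expressed in oocytes. Nlrp4e, which lies next to Nlrp5 on chromosome 7, was at 145 and 177 FPKM with alpha-amanitin and at 46.9, 39.2 and 22.3 FPKM in wild type (log2 difference 2.18, SE 0.44, adjusted p = 0.004). Nlrp4a had a log2 difference of 1.05 (adjusted p = 0.034) and Khdc1c one of 0.79 (adjusted p = 0.045). The KH-domain genes Khdc1b and Khdc1a, at means of 583 and 106 FPKM over the 9 libraries, had 0.47 and 0.24 and did not pass, and neither did Nlrp4g, at 0.61. Those that fell were the Groucho genes Tle1 (-2.95), Tle3 (-3.18) and Tle4 (-1.72) and the BED-domain genes Zbed5 (-3.88) and Zbed6 (-1.80). The differences of Tle6 (not called) and Zbed3 thus had the opposite sign to those of their called relatives. Tle3, for example, was at 1.44 FPKM and listed at 0 with alpha-amanitin, and at 7.40 to 21.3 FPKM in wild type. Of the relatives that were not called, Aes had a difference of 1.05, the same sign as Tle6. Tle2 had -0.65 and Zbed4 -0.05. The difference between a member and its relatives was not tested.

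Among 8 oocyte transcription factors, 6 were tested; Foxo3 rose (0.99) and Taf4b and Sohlh1 fell (-1.08 and -1.94), where 4.31% of all tested genes rose and 25.1% fell. Of 40 other maternal effect genes, 38 were tested, 3 rose and 7 fell, with a median of 0.31. The share that fell is below the 25.1% of all tested genes, a difference that was not tested. The 3 that rose were Bmp15, an oocyte growth factor (1.26), Cnot6l, a deadenylase subunit that removes maternal messenger RNA (1.46), and Pabpc1l, a poly(A)-binding protein gene (2.14). The 7 that fell were Trim28, Pms2, Cdh1, Ago2, Eed, Zfp36l2 and Dppa3, from -4.38 for Trim28 to -1.15 for Dppa3. Of the 19 tested genes transcribed at the 2-cell stage, 15 fell and none rose, with a median of -2.67. No gene of these lists was called in the other comparisons.

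**Figure D5:**
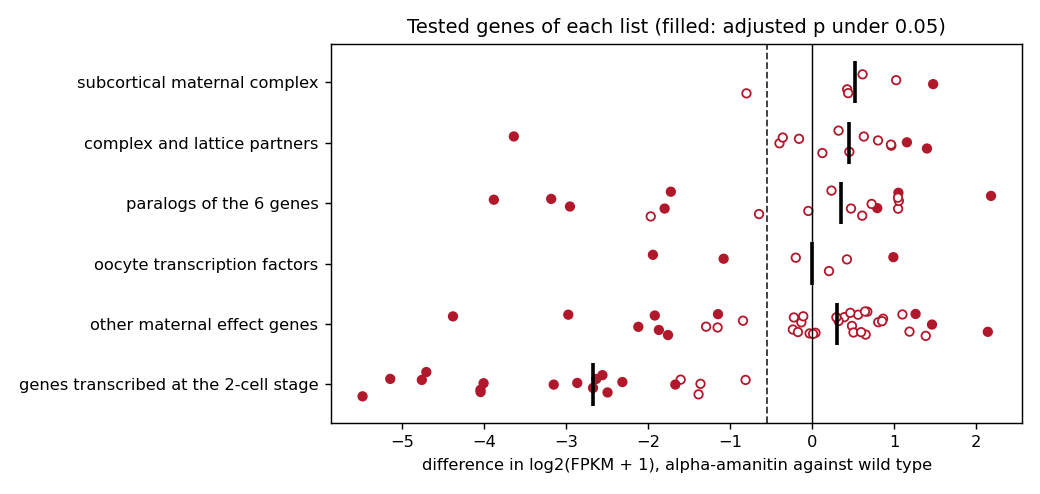
Differences in log2(FPKM + 1) between alpha-amanitin and wild type for the tested genes of each list; points are genes (vertical scatter only separates them), filled where the adjusted p was under 0.05, black ticks are list medians and the dashed line is the median of all tested genes. The median is 0.53 for the subcortical maternal complex and -2.67 for the genes transcribed at the 2-cell stage.

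Patterns across the 9 libraries were set against those of 293 tested genes with a mean of 100 FPKM or more, by the root mean square difference of centred log2(FPKM + 1). The closest to Zbed3 were Dazap2 (0.10), Arf3 (0.16) and Rbpms2 (0.18). Dazap2 was at 236 and 274 FPKM with alpha-amanitin, 112 and 127 FPKM in Kdm5a+b morpholino embryos, 101 and 111 FPKM in the controls, and 95.3, 74.4 and 90.5 FPKM in wild type. The closest to Nlrp5 were Parp12 (0.18), Obox5 (0.20) and Siah2 (0.20), and the closest to Ooep were Ccndbp1 (0.25), Smagp (0.27) and Zfp57 (0.28). Tle6 was closest to Tpt1-ps3 (0.26), Zfp57 (0.34) and Gpd1l (0.37), and Padi6 to Bcl2l10 (0.32), Psme3 (0.34) and Golph3 (0.36). Khdc3 had no close pattern, with Srrm2 (0.76), Lars2 (0.76) and Yam1 (0.76) the nearest. The members were not one another's nearest: Ooep ranked behind 4 of the 293 genes for Tle6 (0.39), and Nlrp5 behind 7 for Ooep (0.32). In the other pairings a member ranked behind 35 to 256 of them. All members but Zbed3 lie below 100 FPKM, so no gene at their own level was compared. The named pairs did not recur after quantile normalization.

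The level of the nearest genes was checked where they lie close. Khdc3 overlaps Gm20509, which was at 0 to 0.229 FPKM over the libraries, and Tle6 lies 59 bases from Tle2, which was at 0 to 1.81 FPKM. The labels used here do not say whether counting used strand. Padi6 lies 3222 bases from its paralog Padi4, at 0.0187 to 3.76 FPKM, and Ooep 7932 bases from Dppa5a, a KH-domain relative at 0.142 to 17.1 FPKM. The nearest genes of Zbed3, Aggf1 at 7.56 to 48.7 FPKM and Pde8b at 0.0530 to 12.01 FPKM, are far below its level.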

How the data were processed

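The authors deposited, per the file headers, 1 Cufflinks-style table per library with the FPKM of each gene, a lower and an upper bound and a status. Libraries were made by the TruSeq procedure from whole-cell RNA, per the labels' protocols. The submitters' processing notes name mm10, Cufflinks and other tools without roles, and the RNA-seq aligner is not given in the sources used here. Read counts are not in these tables, so depth in reads is unknown, and no count model was fitted. The other samples of the series, 56 of 65, were not used here.

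From the FPKM, log2(FPKM + 1) was tested with limma 3.58.1 in R 4.3.3 on 13137 genes, those that reached 1 FPKM in 2 or more of the 9 libraries. Group was the only term, all 9 libraries shared 1 estimate of the spread (5 residual degrees of freedom), eBayes had a trend on the mean, tests were two-sided, and p-values were adjusted by Benjamini-Hochberg over all tested genes with a threshold of 0.05. On this scale the change of a weakly expressed gene comes out too small. An exact permutation test cannot go below 0.2 with 2 libraries against 3, or 0.333 with 2 against 2. The script was tested on simulated data. Alternatives changed the pseudocount, filter, scaling, spread estimate, weights, replicate term and libraries. Promoter windows are RefSeq's on GRCm38.p6; gene starts in the tables were compared with that build.

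The 6 genes and all gene lists were chosen with earlier results of these data known. Named genes are the 6 members, list genes that were called, partners and paralogs averaging 10 FPKM or more, the 3 most similar abundant genes per member, neighbours, and Kdm5a and Kdm5b. Figla, Nobox, Lhx8, Aes, Zbed4 and the genes at 1000 FPKM or more were named after their values were seen.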

Additional observations from a re-analysis of the deposited data

How the results depend on the processing

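Zbed3 was called higher under alpha-amanitin in 18 of 20 alternatives, and leaving out each library in turn gave log2 differences of 1.40 to 1.56; a library left alone in its group is assumed to vary like the other groups. The number of members called in that comparison, 1, became 0 without a filter on low values, where Zbed3 kept its difference of 1.48 with an SE of 0.86 (adjusted p = 0.384, limma; the cause was not tested), 3 with quantile normalization and 5 with median centring. Calls over all genes moved as well. They were 405 higher and 2481 lower of 24287 without the filter. With quantile normalization they were 1716 and 1806 of 13137, and with median centring 3323 and 1590. In the other comparisons 0 members were called in each alternative. Over all genes, 17 were higher and 10 lower with the Kdm5a+b morpholinos when no filter was used. In mismatch controls against wild type 11 were then higher and 0 lower. Replicate numbers were not found to pair libraries (correlations of same-numbered deviations -0.05 to 0.04); with the replicate block 1, 0 and 0 members were called in the 3 comparisons, the Zbed3 difference was 1.47 (adjusted p = 2.23e-04), and over all genes 371 were higher and 2744 lower under alpha-amanitin, against 566 and 3299.

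Members that were not called changed sign in some settings. Khdc3 under alpha-amanitin turned to 0.23 with quantile normalization and 0.27 with median centring, and Nlrp5 in mismatch controls against wild type to -0.068 with both injected groups averaged. Leaving out single libraries gave ranges across 0 in the Kdm5a+b comparison for Ooep (-0.38 to 0.032), Tle6 (-0.44 to 0.39) and Padi6 (-0.37 to 0.80), and in mismatch controls against wild type for Padi6 (-0.85 to 0.32). Under alpha-amanitin the same ranges were 0.04 to 0.82 for Nlrp5, 0.16 to 1.07 for Ooep, 0.16 to 0.72 for Tle6 and 0.79 to 1.32 for Padi6. Of the 18 pairs of a member and a gene most like it, 0 recurred after quantile normalization, though Golph3, Dazap2, Arf3 and Yam1 then stood beside other members. With the middle of the bounds in place of the FPKM, the Nlrp5 share of the summed 6 in controls was 0.618% against 0.628%, and the Tle6 share with the Kdm5a+b morpholinos 0.559% against 0.588%. With 2 or 3 libraries a group, a missing call does not show that a member was unchanged. Values inside its interval remain possible.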
